A study of Mus musculus with 12 samples.

Results

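Lymphocytes hold on to other cells, to matrix and to vessel walls through integrins and a small set of other surface proteins, and 9 genes of this group were followed in leukemic and normal mouse thymus. They were the integrin alpha chains Itgae, Itgal and Itga4, the integrin beta chains Itgb7, Itgb1 and Itgb2, the integrin ligand Icam2, the selectin ligand Selplg and the hyaluronan receptor Cd44. Every probe set that the platform annotation assigns to these genes was taken, which gave 16 of the 12422 probe sets tested and covered all 9 genes. No probe set shared by several genes was annotated to a member.

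An integrin is a heterodimer of 1 alpha and 1 beta chain, and neither chain reaches the cell surface without a partner. Alpha E pairs with beta 7 and binds E-cadherin on epithelial cells, alpha 4 pairs with beta 7 or beta 1 and binds MAdCAM-1, VCAM-1 and fibronectin, and alpha L pairs with beta 2 to form LFA-1, which binds ICAM proteins. In the thymus these contacts hold thymocytes to epithelium and matrix, and their set changes as thymocytes mature.

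RNA abundance was measured on Affymetrix 3'-end arrays in unsorted cell suspensions of the thymus of C57Bl/6 mice, made by mechanical dissociation in cold buffer. The 8 leukemia arrays hold leukemic cells of terminally ill TEL-JAK2 mice, which carry a fusion of the transcription factor TEL (Etv6) with the tyrosine kinase JAK2. The 4 thymocyte arrays hold normal thymus cells of wild type animals that were 2 months old. Neither the age of the leukemic mice nor the promoter of the fusion is given in the sources used here, so age and genotype cannot be told apart. The labels do not say outright that each array is a different mouse, and the p-values then cover only the spread among these arrays, which may be technical. In such suspensions fewer cells of a type and less RNA per cell cannot be told apart.

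Array medians lay between 66.48 and 70.18 intensity units. Over probe sets, Pearson's r was 0.961 to 0.993 between leukemias and 0.990 to 0.997 between thymocyte arrays. Values are given as log2 intensity, and a log2 difference is leukemia minus thymocytes with its limma standard error (SE). As a guide to what is near background, the 95th percentile of 19 probe sets for non-mouse transcripts, here called the control level, lay at 5.20 to 5.59 over the arrays. Values of different probe sets are not compared with each other, because each has its own probe affinity.

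In the leukemias Itgae, Itgb7 and Selplg rose, Itgb1 and Icam2 fell, and Itgb2, Itgal, Itga4 and Cd44 did not pass the test. By probe set, 5 of 16 rose, 3 fell and 8 did not pass an adjusted p of 0.05. Over all probe sets 14.5% passed, 4.65% higher and 9.88% lower in leukemia. The 2 groups did not overlap for 8 of the 16 member probe sets, against 10.7% of all probe sets (3.84% higher and 6.84% lower in leukemia). Counted by gene, with the brightest probe set of each, 17.3% of all genes passed (5.41% higher, 11.9% lower) and 12.3% did not overlap (4.21% higher, 8.11% lower). The median log2 difference was 0.02 over the member probe sets and 0.01 over all probe sets. The members were chosen with earlier results of these data known, so these counts describe them and test nothing.

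**Figure D1:**
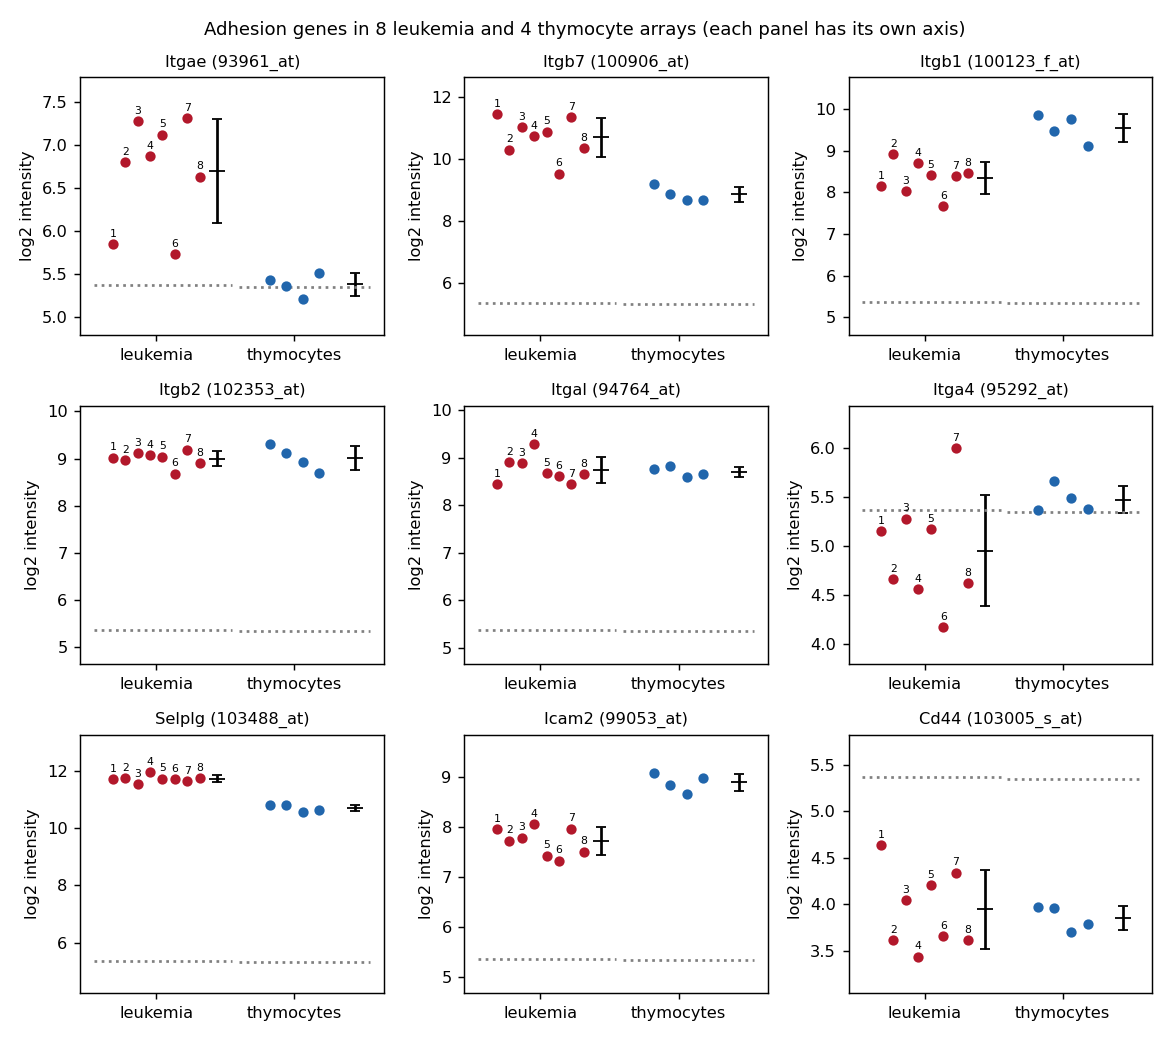
Log2 intensity (y axis, own scale in each panel) of the brightest probe set of each gene in 8 leukemia arrays (red, numbered) and 4 thymocyte arrays (blue). Black bars show the group mean and SD, and the dotted line the mean control level of each group; Itgae, Itgb7 and Selplg lie higher and Itgb1 and Icam2 lower in every leukemia, while Cd44 lies under the control level throughout.

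Itgb7 encodes beta 7, the chain shared by the gut-homing integrin alpha 4 beta 7 and by alpha E beta 7. On its brightest probe set (100906_at) the leukemias ranged from 9.53 to 11.44 with a median of 10.82. The thymocyte arrays read 9.20, 8.87, 8.69 and 8.69. All 8 leukemias lay above all 4 thymocyte arrays, with leukemias 1 and 7 highest and leukemia 6 nearest to the thymocytes. The leukemia mean was 10.70 ± 0.63 (SD, n = 8) and the thymocyte mean 8.86 ± 0.24 (SD, n = 4). Itgb7 was thus 3.58-fold higher in leukemia (log2 difference 1.84, SE 0.29, limma adjusted p = 0.000819). The other Itgb7 probe set (162193_f_at), whose name marks possible cross-hybridization, rose by 0.68 (SE 0.17, adjusted p = 0.0157). Its thymocyte values were near background, with 3 of 4 arrays above the control level, so this size is not exact. This probe set followed the first across the 12 arrays with a Pearson r of 0.957, given as a description.

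Itgae encodes alpha E, also known as CD103, which on T cells is found only together with beta 7. On probe set 93961_at leukemias 2, 3, 4, 5, 7 and 8 read 6.80, 7.28, 6.87, 7.12, 7.31 and 6.63. Leukemias 1 and 6 read 5.84 and 5.73, and the thymocyte arrays 5.43, 5.35, 5.20 and 5.51. The leukemias thus formed a high set of 6 and a low pair just above the thymocytes, and no leukemia overlapped the thymocyte arrays. The log2 difference was 1.32 (SE 0.28, adjusted p = 0.00525), 2.50-fold as measured. Of the thymocyte arrays, 2 of 4 were above the control level, so this ratio rests in part on values at background and is not exact. A dimmer probe set (161730_f_at) gave 0.87 (SE 0.14, adjusted p = 0.000845), with 2 of 8 leukemias and 0 of 4 thymocyte arrays above the control level, so no fold is given for it. Here too leukemias 1 and 6 were the lowest, at 4.91 and 4.77, but leukemia 8 was close at 4.98, so no low pair stood apart.

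Itgb1 encodes beta 1, the common chain of the very late antigen integrins that bind fibronectin, laminins and VCAM-1. On probe set 100123_f_at the thymocyte arrays read 9.86, 9.48, 9.76 and 9.12. The leukemias ranged from 7.67 to 8.92 with a median of 8.40, all below the lowest thymocyte array. The log2 difference was -1.21 (SE 0.20, adjusted p = 0.00122), which is 2.31-fold lower in leukemia. The other probe set (100124_r_at) fell by 0.78 (SE 0.13, adjusted p = 0.000907), again with all leukemias below all thymocyte arrays. The names of both Itgb1 probe sets mark possible cross-hybridization, and no more specific one is on the array. Across the 8 leukemias they were less alike (r = 0.463) than over all 12 arrays (r = 0.885).

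Itgb7 and Itgb1 both encode partners of alpha 4 and moved in opposite directions, so their start regions are shown side by side. RefSeq promoter windows were at hand for 4 of the 9 members, Itgb7, Itgb1, Itga4 and Cd44. The 250 bases before the annotated start are printed 5′ to 3′ on the strand of the gene, from the GRCm38.p6 build, with CG dinucleotides in capitals. Itgb7 lies on the minus strand at chr15:102231936-102232185 and Itgb1 on the plus strand at chr8:128685404-128685653.
Itgb7: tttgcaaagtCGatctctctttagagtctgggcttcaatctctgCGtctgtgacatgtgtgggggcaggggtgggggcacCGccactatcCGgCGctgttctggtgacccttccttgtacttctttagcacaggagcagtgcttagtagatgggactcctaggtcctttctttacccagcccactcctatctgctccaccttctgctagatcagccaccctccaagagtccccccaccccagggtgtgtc
Itgb1: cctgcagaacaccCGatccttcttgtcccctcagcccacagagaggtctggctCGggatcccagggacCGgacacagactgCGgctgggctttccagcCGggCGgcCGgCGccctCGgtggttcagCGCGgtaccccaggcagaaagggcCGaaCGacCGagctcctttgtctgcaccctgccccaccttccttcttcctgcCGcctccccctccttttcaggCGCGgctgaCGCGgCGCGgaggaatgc
The Itgb7 window holds 5 CG dinucleotides at a GC content of 56.0%, and the Itgb1 window 21 at 68.0%. The median over 32851 promoter windows of the same length was 6, and 14.8% of them held more CG dinucleotides than Itgb1. Itga4 (6 CG) and Cd44 (5 CG) were close to Itgb7. A search on both strands for the letters TTCNNNGAA (STAT), TGTGGT (RUNX) and GGAAGT (ETS) found 1 match in these 4 windows, a RUNX match in Itga4 on the strand opposite the gene, 60 to 55 bases before the start. Of all windows 7.02%, 14.0% and 19.7% held these letters. A match, or none, describes only the letters of this window.

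Itga4 encodes alpha 4, the partner of both beta 7 and beta 1. On its brightest probe set (95292_at) the thymocyte arrays read 5.37, 5.66, 5.49 and 5.38, and leukemia 7 stood highest at 6.00. The other 7 leukemias lay between 4.17 and 5.28, below every thymocyte array. Values were near background, with 1 of 8 leukemias and 3 of 4 thymocyte arrays above the control level. The log2 difference of -0.52 (SE 0.26, 95% interval -1.08 to 0.04) did not pass (adjusted p = 0.230). A similar probe set (102655_at) gave -0.43 (SE 0.20, adjusted p = 0.201), and the third (102656_at) was under the control level on every array. Without leukemia 7 the first 2 probe sets passed, at -0.67 (adjusted p = 0.0317) and -0.55 (adjusted p = 0.0121).

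Itgal and Itgb2 encode LFA-1, the main integrin of lymphocytes for contact with other blood cells and with endothelium. Itgal (94764_at) ranged from 8.45 to 9.28 in the leukemias (median 8.67) and read 8.77, 8.82, 8.59 and 8.65 in the thymocyte arrays. Itgb2 (102353_at) ranged from 8.68 to 9.19 in the leukemias (median 9.03) and read 9.30, 9.11, 8.92 and 8.70 in the thymocyte arrays. The groups overlapped for both genes, and both were above the control level on all arrays. The difference was 0.03 for Itgal (SE 0.14, adjusted p = 0.914), with a 95% interval from 0.837-fold to 1.25-fold. For Itgb2 it was -0.01 (SE 0.11, adjusted p = 0.973), with an interval from 0.840-fold to 1.17-fold, and its sign turned under quantile normalization and median centring.

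Icam2 encodes a ligand of LFA-1 that lymphocytes, platelets and endothelium carry. On probe set 99053_at the thymocyte arrays read 9.07, 8.85, 8.66 and 8.98, and the leukemias 7.33 to 8.06 with a median of 7.76. Every leukemia lay below every thymocyte array, with leukemias 5, 6 and 8 lowest. The log2 difference was -1.17 (SE 0.14, adjusted p = 0.000102), a 2.25-fold decrease. Of 9 endothelial marker genes measured, 5 (Cdh5, Tek, Cldn5, Tie1 and Emcn) were at or under the control level on all 12 arrays. Of the other 4, Eng, the endothelial receptor endoglin, fell by 0.38 (SE 0.12, adjusted p = 0.0467), and its groups overlapped. No other endothelial gene passed, and the median log2 difference over the 9 genes was 0.06. The log2 of the summed intensity of the 9 genes was 8.995 to 9.46 in leukemias and 9.33 to 9.47 in thymocyte arrays. The part of endothelial cells in the Icam2 difference was not tested.

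Selplg encodes PSGL-1, a mucin-like protein that binds selectins once sugars have been added to it. Its probe set (103488_at) read 10.79, 10.79, 10.57 and 10.64 in the thymocyte arrays and 11.52 to 11.95 in the leukemias, with a median of 11.71. The groups were far apart relative to their spread, with SDs of 0.12 in leukemias and 0.11 in thymocyte arrays. The log2 difference was 1.01 (SE 0.08, adjusted p = 2.4e-06), a 2.02-fold increase. Of 16 measured genes that build or carry the sugars of selectin ligands, 2 rose, 1 fell and 13 did not pass. Thus 18.8% passed, against 17.3% of all genes. The fucosyltransferase Fut4 (0.29, SE 0.08, adjusted p = 0.0320) and the sialyltransferase St3gal3 (0.42, SE 0.13, adjusted p = 0.0347) rose. For St3gal3, 2 of 4 thymocyte arrays were above the control level. The sialyltransferase St3gal6 fell by 1.08 (SE 0.21, adjusted p = 0.0029), with 1 of 8 leukemias above the control level. Without leukemia 8 or thymocyte array 1, 2 or 3, 1 gene of this list passed.

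Cd44 encodes the hyaluronan receptor, which marks early thymocyte progenitors and is high on activated T cells. All 3 of its probe sets were under the control level on all 12 arrays, so these arrays give no usable level. The brightest (103005_s_at) ranged from 3.44 to 4.64 in the leukemias, around thymocyte values of 3.97, 3.96, 3.70 and 3.79. Leukemias 1, 3, 5 and 7 lay above all thymocyte arrays and leukemias 2, 4, 6 and 8 below all of them. The mean difference was 0.09 (SE 0.20, adjusted p = 0.820).

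**Figure D2:**
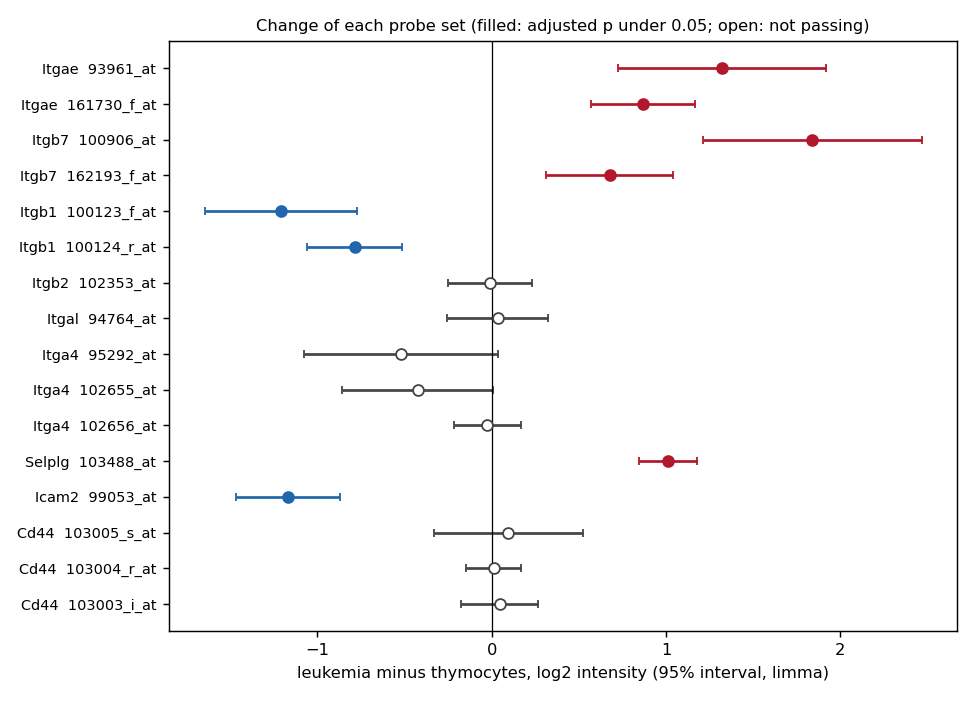
Log2 difference of leukemia minus thymocytes (x axis) for each of the 16 probe sets, with the 95% interval from limma; filled points have an adjusted p under 0.05. Probe sets of Itgae, Itgb7 and Selplg lie to the right, those of Itgb1 and Icam2 to the left, and the others cross 0.

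Because the chains work as pairs, the change of each partner was set against that of the other within each array. Itga4 and Itgb7 changed by unequal amounts. Itga4 was near background, above the control level in 1 of 8 leukemias and 3 of 4 thymocyte arrays, so the size of the shift is not exact. Their log2 difference within an array was -3.83, -3.21, -3.21 and -3.31 in thymocyte arrays and -6.29 to -5.35 in leukemias, without overlap. The shift of -2.36 had an exact two-sided permutation p of 0.00202, the smallest that 12 arrays allow, and 0.00808 adjusted over 4 pairs. Of this shift, 1.84 is the rise of Itgb7 given above. The shift was -0.52 for Itgae against Itgb7 (exact permutation p = 0.156, adjusted 0.207) and 0.69 for Itga4 against Itgb1 (exact permutation p = 0.0909, adjusted 0.182). It was 0.04 for Itgal against Itgb2 (exact permutation p = 0.804, adjusted 0.804). These 3 did not pass, which does not show that the chains changed equally. With the mean of all probe sets per gene, Itga4 against Itgb1 passed at 0.67 (exact permutation, adjusted p = 0.0364). That Itga4 mean takes in 102656_at, under the control level on every array. It also takes in 102655_at, above that level in 1 of 8 leukemias and 0 of 4 thymocyte arrays. Values at background thus enter the shift, and neither its size nor its pass is certain.

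Among leukemias, Itgae and Itgb7 were both lowest in leukemia 6 and both high in leukemias 3, 5 and 7, but leukemia 1 had the highest Itgb7 value (11.44) and the second lowest Itgae value (5.84). Its difference of the 2 chains was -5.60, against -4.04 to -3.50 in the other leukemias. In 3 of the 4 pairs, Itgae with Itgb7 among them, a chain had a gap over 40% of its range, and these pairs get no pooled value. The gap set off leukemia 6 alone for Itgb7 and Itgb2, leukemia 4 alone for Itgal, and leukemias 1 and 6 for Itgae. As a description, r was 0.927 for Itgae with Itgb7 without leukemias 6 and 1. It was 0.758 for Itga4 with Itgb7 without leukemias 7 and 6, and -0.021 for Itgal with Itgb2 without leukemias 4 and 2. For Itga4 with Itgb1 Pearson's r was 0.058 (exact permutation p = 0.899) and Spearman's rho -0.143 (exact permutation p = 0.752), and the adjusted values over 4 pairs were 0.899 and 0.793. Without leukemias 7 and 6 r was -0.832, so the value rests on those arrays.

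**Figure D3:**
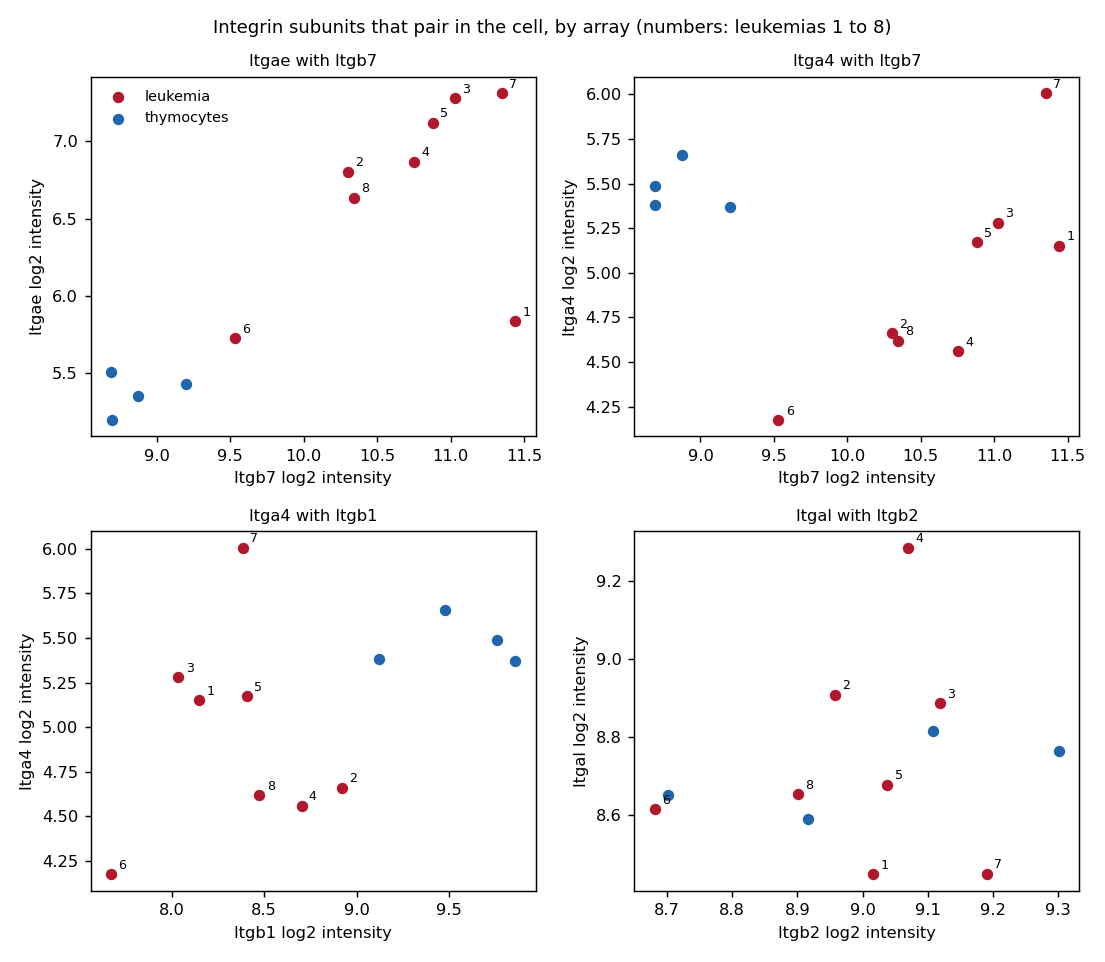
Log2 intensity of 4 pairs of integrin chains that form heterodimers, each point an array (red leukemias with their number, blue thymocytes). In the panel of Itgae with Itgb7 leukemia 1 lies apart from the other leukemias, and in the panel of Itga4 with Itgb7 the leukemias lie to the right of the thymocytes.

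The members also differed in how much they varied among leukemias. The SD over leukemias was 0.63 for Itgb7, 0.61 for Itgae and 0.57 for Itga4, wider than 97.4%, 97.1% and 96.5% of all probe sets. For Selplg it was 0.12, wider than 23.6% of them, and for Itgb2 0.16, wider than 43.4%. From the lowest to the highest leukemia, Itgb7 spanned 3.76-fold and Selplg 1.34-fold.

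The genes with the most similar profile over the 12 arrays were taken by Pearson's r, as a description in which the group difference has a large share. Itgb7 was most like Lcp1, which encodes the actin-bundling protein L-plastin of leukocytes (r = 0.995, and 0.983 over the 8 leukemias alone), and Srgn, the granule proteoglycan serglycin (0.965 and 0.934). Itgae was most like the guanylate-binding protein gene Gbp7 (0.928 and 0.892) and the oxidase subunit gene Cyba (0.904 and 0.752). Selplg went with Arhgap9 (0.983 and 0.748) and the cytokine gene Flt3l (0.978 and 0.637). Itgb1 went with Trim41 (0.964 and 0.855) and Llgl1 (0.958 and 0.788), and Icam2 with Ppp1r15b (0.968 and 0.953) and Bclaf1 (0.965 and 0.856). Itga4 went with the interleukin-4 receptor gene Il4ra (0.926 and 0.921) and Emp1 (0.923 and 0.940). Itgal went with Higd2a (0.942 and 0.974) and Recql (0.924 and 0.936), and Itgb2 with Nifk (0.873 and 0.919) and Gpd2 (0.870 and 0.826). Cd44, which is under the control level, went with Arhgef3 (0.960 and 0.963) and Atp1b3 (0.957 and 0.963).

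Several members are also expressed by macrophages, which a thymus suspension can hold. Of 20 macrophage markers measured, 0 passed limma's adjusted test, 3 had an unadjusted p under 0.05, and 4 (Mrc1, Mertk, Msr1 and Siglec1) were under the control level throughout. The log2 of their summed intensity was 10.64 to 12.85 in leukemias and 10.70 to 11.09 in thymocyte arrays. The mean score of the list was 1.30, 1.13 and 0.82 in leukemias 7, 5 and 3, and -0.14 to 0.29 in the other 5. With this score as a covariate Itgb7 rose by 1.53 (adjusted p = 0.00255) and Itgae by 1.01 (adjusted p = 0.0190), and Itga4 fell by 0.92 and passed (adjusted p = 0.00197). The dimmer Itgb7 probe set no longer passed (0.48, adjusted p = 0.0594). Selplg, Icam2 and Itgb1 were at 1.07, -1.19 and -1.20, all passing.

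Across the 8 leukemias, the Itga4 values went with the macrophage score. Itga4 was above the control level in 1 of 8 leukemias, so this relation rests mostly on values near background. Pearson's r was 0.879 (exact permutation p = 0.00112, adjusted 0.0100 over 9 members) and Spearman's rho 0.952 (exact permutation p = 0.00114, adjusted 0.0103), with r = 0.825 without leukemias 7 and 5. Leaving out leukemia 2, 7 or 8 gave r of 0.874, 0.800 and 0.872, with adjusted exact permutation p of 0.0714, 0.198 and 0.0732. Cd44 was under the control level on every array, so its values say nothing of a Cd44 level. For these r was 0.662 (exact permutation p = 0.0826, adjusted 0.176; rho 0.762, p = 0.0368, adjusted 0.150; r = 0.556 without leukemias 7 and 5). Without leukemia 1 it was 0.990 (exact permutation, adjusted p = 0.0107). For Itgb1 r was -0.081 (exact permutation p = 0.850, adjusted 0.889; rho -0.214, p = 0.619, adjusted 0.696; r = -0.295 without leukemias 7 and 5). For Icam2 r was 0.055 (exact permutation p = 0.889, adjusted 0.889; rho 0.071, p = 0.882, adjusted 0.882; r = 0.131 without leukemias 7 and 5). The values of the other 5 members had a gap over 40% of their range, and these members get no pooled r. For Itgb7 and Itgb2 the gap set off leukemia 6 alone, and for Itgal and Selplg leukemia 4 alone. For Itgae it set off leukemias 1 and 6.

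**Figure D4:**
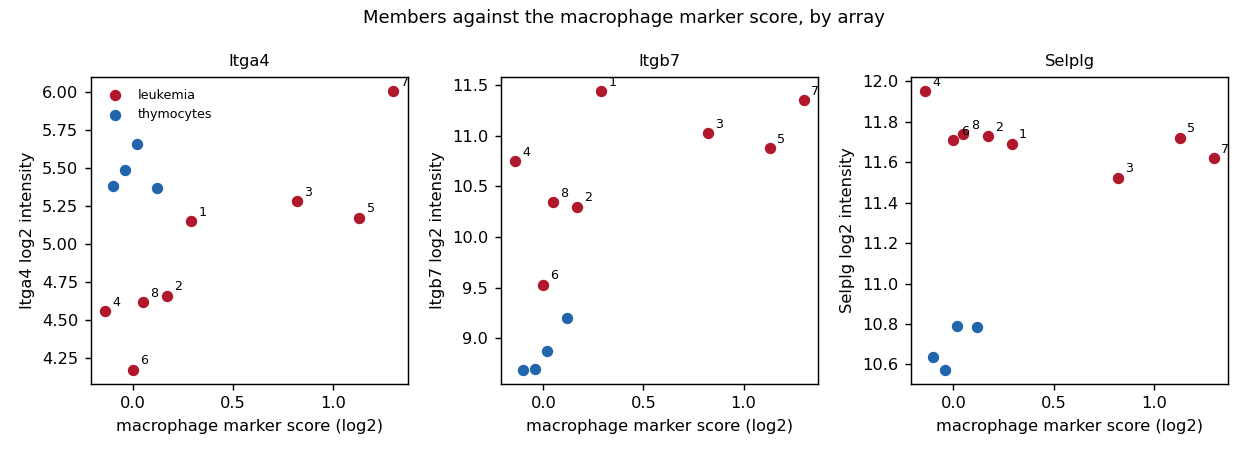
Log2 intensity of Itga4, Itgb7 and Selplg (y axes) against the macrophage marker score (x axis, mean log2 difference from thymocytes over 20 genes), each point an array (red leukemias with their number, blue thymocytes). Itga4 is highest in leukemia 7, which also has the highest score, 1.30.

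Titles carry a number of 4 digits for 4 leukemias and 3 thymocyte arrays, and what that number stands for is not given. Within these arrays the log2 difference was 1.69 for Itgae, 1.82 for Itgb7, 1.01 for Selplg, -1.18 for Itgb1 and -1.11 for Icam2, and all 5 passed. In the other 4 leukemias and 1 thymocyte array the values were 0.87, 1.98, 1.05, -0.95 and -1.29, with the same signs. With 1 thymocyte array, which is assumed to vary like the leukemias, 13 probe sets passed in all and no member did, so this set gives values and no usable test of the members. Leukemias 1 and 6, which had the low Itgae values, both belong to the latter set. So do leukemia 7, which had the highest Itgae value (7.31), and leukemia 8 (6.63). With the 2 kinds of title as a block the 5 values were 1.43, 1.87, 1.03, -1.11 and -1.17, and all passed.

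Other genes of lymphocyte adhesion were taken from 6 lists of 186 genes, of which 147 were on the array. Of these 12 rose, 11 fell and 124 did not pass, so 15.6% changed, against 17.3% of all 8251 genes. Without thymocyte array 2 the count was 15 in place of 23. Among 12 other integrin chains 0 passed by limma, with 0 at an unadjusted p under 0.05 and 1 with array weights, and without leukemia 7 there was 1. The mean score of these 12 genes was 0.06 to 0.22 in leukemias and -0.01 to 0.02 in thymocyte arrays.

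Of 25 other adhesion receptors of lymphocytes 4 rose, 1 fell and 20 did not pass. Cd2 and its mouse ligand Cd48 both rose, by 1.38 (SE 0.11) and by 1.74 (SE 0.18, adjusted p = 2.8e-05). Cd48 went from 8.35 ± 0.12 (SD, n = 4) to 10.09 ± 0.39 (SD, n = 8). The tetraspanin genes Cd82 (1.54, SE 0.13, adjusted p = 5.5e-06) and Cd37 (0.51, SE 0.10) rose too, and Cd6, a receptor for the adhesion molecule ALCAM, fell by 1.32 (SE 0.11).

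Among 43 genes that activate integrins or link them to actin 3 rose, 5 fell and 35 did not pass. The GTPase gene Rac2 (0.51, SE 0.09), the actin regulator Vasp (0.70, SE 0.13) and Cyth1, which encodes a cytohesin that regulates ARF GTPases (0.32, SE 0.09), rose. The adaptor gene Lims1, a component of the complex at the beta chain tail, fell by 0.79 (SE 0.11, adjusted p = 0.00027), and alpha-actinin Actn1 by 0.88 (SE 0.23). The membrane-to-actin linkers Rdx (-0.50, SE 0.11) and Ezr (-0.38, SE 0.10) and the G protein gene Gnai2 (-0.20, SE 0.06) fell as well. Without thymocyte array 1, 2 or 3 the list had 5, 4 and 5 changed genes.

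Of 21 ligands and vascular addressins 1 passed, Podxl, a sialomucin (0.42, SE 0.11, adjusted p = 0.0189). There were 2 without leukemia 6 and 0 without thymocyte array 1. Of 30 genes of TGF-beta and retinoic acid signalling and RUNX factors, pathways known to control Itgae or the alpha 4 beta 7 integrin in T cells, 2 rose, 4 fell and 24 did not pass. The retinoic acid receptor gene Rara fell by 0.91 (SE 0.11, adjusted p = 9.0e-05), while Rarg rose by 0.62 (SE 0.13). Smad1 (-0.96, SE 0.17), the corepressor gene Tgif1 (-0.71, SE 0.17) and Cbfb, the partner of RUNX proteins (-0.32, SE 0.10), fell. The inhibitor Smad7 rose by 0.41 (SE 0.11). Runx3 was not analysed here.

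**Figure D5:**
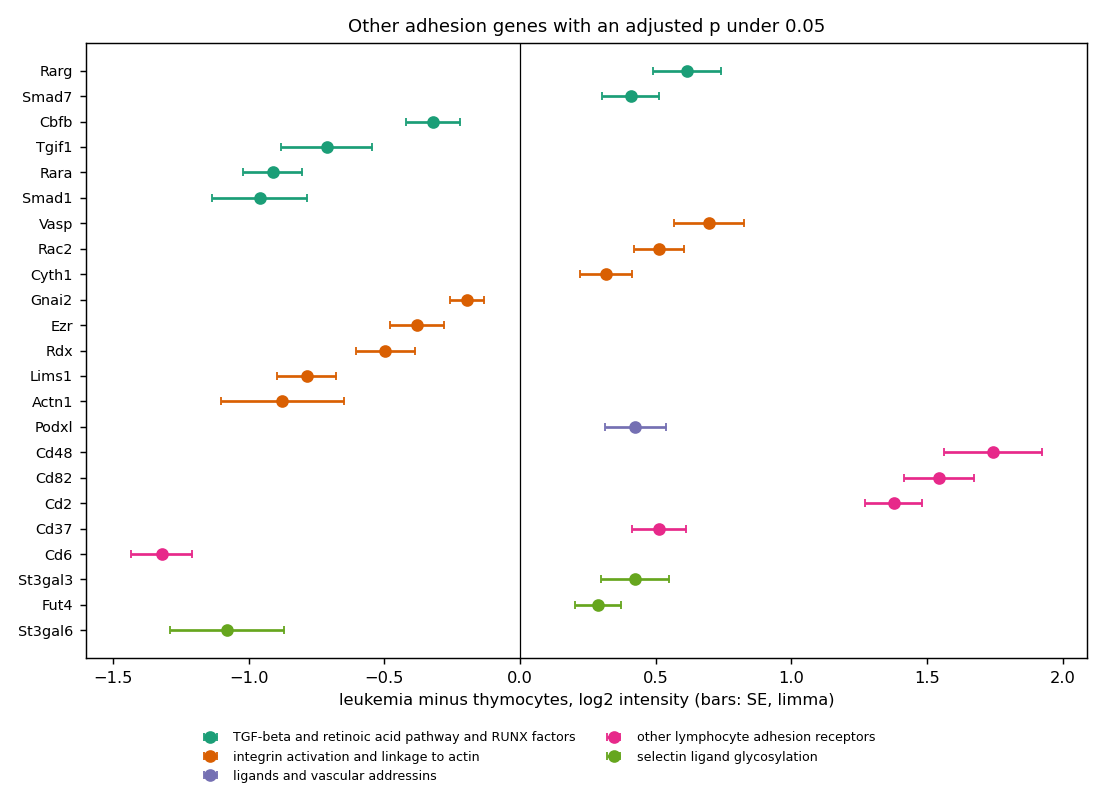
Log2 difference of leukemia minus thymocytes (x axis, bars are the SE) for the 23 genes of the 6 adhesion lists that passed, coloured by list; no gene of the list of other integrin chains is among them. Cd48, Cd82 and Cd2 show the largest increases among them, and Cd6 and St3gal6 the largest decreases.

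Markers of the labelled cells and of other cells were read the same way. Of 10 T-lineage markers all were above the control level on some array, and Cd4 (-1.89) and Cd247 (-0.93) fell. The log2 of their summed intensity was 13.56 to 14.48 in leukemias and 14.33 to 14.39 in thymocyte arrays. Counts that passed were 0 of 10 for B cells (2 at an unadjusted p under 0.05), 0 of 4 for platelets (0), 1 of 6 for NK cells, 1 of 7 for dendritic cells and 1 of 9 for endothelium. All 6 NK cell genes were at or under the control level on every array, the passing Klra3 included. They were 1 of 10 for fibroblasts, 1 of 6 for erythroid cells, 3 of 10 for epithelium and 4 of 14 for granulocytes. Beside Cd4, changes of at least 2-fold were those of Irf8 (1.20), Fbln1 (1.64), Epcam (1.37, with 2 of 8 leukemias and 0 of 4 thymocyte arrays above the control level), Ccl25 (-1.20) and S100a8 (-1.66). In the leukemias Ccl25 was above the control level on 2 of 8 arrays and S100a8 on 4 of 8. The part of such cells in the values of the adhesion genes was not tested beyond the macrophage covariate.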

How the data were processed

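The authors deposited linear intensities for each probe set, computed with RMA according to the labels' processing notes. Its version is not stated there. RMA brings arrays to a common distribution, so a shift shared by most genes cannot be seen. Values were put on a log2 scale with no offset, and 66 array controls were set aside from 12488 probe sets. Of the rest, 10833 name a single gene, 396 name several and 1193 name none in the platform annotation, and 10817 matched RefSeq (GRCm38.p6), used for names and promoters only. Groups were compared with limma 3.58.1 (R 4.3.3; lmFit, eBayes, no covariate), two-sided, with Benjamini-Hochberg adjustment over 12422 probe sets, or over 8251 genes for the lists, taking the brightest probe set of a gene. Adjusted p-values are limma's unless an exact permutation test is named. The fit was tested on simulated data. No arrays were identical, and their number limits the precision.

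The members, lists and tests were chosen with earlier results of these data known. All members are named. From each adhesion list the rule takes up to 4 passing genes with the largest moderated statistic, and from each marker list the passing genes changed at least 2-fold and the brightest pair, which is not printed. Cd37, Cyth1, Actn1, Ezr, Gnai2, Smad7, Cbfb, Cd247, Klra3 and the markers at the control level were named after their values were seen. Alternatives were a filter that keeps the brighter probe sets, quantile normalization, median centring, trend and robust variance, array weights, leaving out each array, the title-number class as a block or alone, the macrophage score as a covariate, limma's treat against 1.5-fold, the mean of a gene's probe sets, dropping cross-hybridizing probe sets, and macrophage markers above the control level.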

Additional observations from a re-analysis of the deposited data

Results flagged for a closer look

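Of 32 sets of values, 16 probe sets in each group, 1 had an array far from the others. On the Cd44 probe set 103003_i_at leukemia 7 read 3.42, and its gap to the next leukemia was 0.785 of the group's range. Chance alone picks out about 1 in 20 such sets, so 1 of 32 is no more than chance gives. The value is under the control level, and the other Cd44 probe sets did not show leukemia 7 apart.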

How the results depend on the processing

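The 8 member probe sets that passed kept their direction under all alternatives run. All 8 passed in each fit that left out 1 array, which called 8 to 10 member probe sets. With the macrophage covariate 1 of the 8 was lost (given above), in the arrays without a 4-digit title number 0 passed, and 3 passed with treat, where Itgae and Itgb1 were lost. Probe sets changed numbered 3400 with array weights, 13 in the arrays without a 4-digit number (5 arrays), 128 with treat, and 1162 to 2044 without 1 array, lowest without thymocyte array 1. Genes changed numbered 2636, 4, 102 and 938 to 1618, and those of the adhesion lists together 45, 0, 4 and 15 to 26. Itga4 also passed with array weights (-0.60, limma adjusted p = 0.0133). In the arrays with a 4-digit title number Itga4 102655_at passed (-0.53, limma adjusted p = 0.0205) and 95292_at did not (-0.59, limma adjusted p = 0.0646).

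Signs turned for members that did not pass. Itgb2 was 0.027 with quantile normalization, 0.0017 with median centring, 0.036 with the title-number block, 0.25 in the arrays without a 4-digit number, and -0.11 to 0.088 without 1 array. Itgal was -0.11 in the arrays without a 4-digit number and -0.043 to 0.076 without 1 array. Itga4 102656_at was 0.0075 with the block, 0.061 in those arrays and -0.071 to 0.050 without 1 array. Cd44 103005_s_at was -0.0013 with array weights, -0.14 with the covariate, -0.047 in the arrays with a 4-digit number and -0.0054 to 0.17 without 1 array. Cd44 103004_r_at was -0.039 with array weights, -0.080 in the arrays without a 4-digit number and -0.051 to 0.047 without 1 array. Cd44 103003_i_at was -0.00069 with the block, -0.040 with the covariate, -0.12 in the arrays without a 4-digit number and -0.015 to 0.12 without 1 array.

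When a gene's probe sets were averaged, the unequal change of Itga4 and Itgb1 was 0.67 and passed, and their correlation was -0.14. The averaged Itga4 value takes in probe sets at background, so these sizes are not exact. The unequal change of Itga4 and Itgb7 was then -1.58 and passed (exact permutation, adjusted p = 0.00808). That of Itgae and Itgb7 was -0.16 and did not pass, so the size depends on the probe sets used. Without 1 array the unequal changes were 0.55 to 0.81 (Itga4 and Itgb1), -2.51 to -2.28 (Itga4 and Itgb7), -0.61 to -0.29 (Itgae and Itgb7) and -0.034 to 0.13 (Itgal and Itgb2), and the Itga4 to Itgb1 correlation -0.55 to 0.23. Correlations with the macrophage score were then 0.80 to 0.94 for Itga4, 0.57 to 0.99 for Cd44, -0.46 to 0.10 for Itgb1 and -0.23 to 0.35 for Icam2. The cause of these shifts was not tested. No paired analysis was possible because the title numbers are not shared between the groups. Signal over background limits Cd44, Itga4 and the dimmer Itgae probe set most.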
